A study of Mus musculus with 3 samples.

Results

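The 8 genes described here, referred to as members, code for proteins of the blood vessel wall and were followed through a single-cell RNA sequencing (scRNAseq) dataset of the mouse lacrimal gland (LG), the gland that secretes the watery part of the tears. They were chosen by name from the 32285 genes of the count tables: *Selp*, *Sele*, *Vcam1*, *Icam1*, *Vwf*, *Plvap*, *Emcn* and *Podxl*. All 8 were found, once each, in all 3 libraries. The libraries were a female library (female replicate 1), male library 1 and male library 2 (male replicates 1 and 2). Each was a pool of 6 LGs from 3 wild-type C57BL/6J mice aged 2 months, with no treatment, digested with collagenase IV, dispase II and accutase, cleared of red blood cells and of dead cells, and run on the 10x Genomics platform. Only 1 library was female, and it came from another sequencing core and another day than the male pair. Sex therefore cannot be told apart from core or day, and the sexes were not tested against each other. Because mice were pooled, the spread between libraries is a spread between pools and not between mice. The p-values below rest on how differences between cell groups of the same library vary from pool to pool. Their variance is shared across groups and genes.

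Endothelial cells (EC) line every blood vessel, and the bed they line, arteriole, capillary or venule, sets which proteins they carry. Leukocytes leave the blood mainly through the wall of small venules. P-selectin (*Selp*) and E-selectin (*Sele*) slow the passing cell by binding sugar chains on its surface, and *Icam1* and *Vcam1*, ligands of the immunoglobulin type for leukocyte integrins, then hold it. P-selectin is kept ready in the Weibel-Palade bodies of EC, granules built around von Willebrand factor (*Vwf*), a clotting protein, and *Sele*, *Icam1* and *Vcam1* are known to be switched on by inflammatory cytokines through NF-κB. *Plvap* forms the diaphragms that span the pores and caveolae of leaky capillaries, as found in secretory glands. Endomucin (*Emcn*) and podocalyxin (*Podxl*) are sialomucins, strongly charged proteins on the vessel surface that are described as keeping cells from adhering.

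In the mouse genome (GRCm38, gene models of GENCODE vM21), the members are protein-coding genes on 5 chromosomes. *Sele* (ENSMUSG00000026582, chr1:164048234-164057677) and *Selp* (ENSMUSG00000026580, chr1:164115264-164150026) lie on the plus strand of the same chromosome. *Vcam1* (ENSMUSG00000027962) lies at chr3:116109949-116129688 on the minus strand and *Emcn* (ENSMUSG00000054690) at chr3:137341067-137432185 on the plus strand. *Icam1* (ENSMUSG00000037405) lies at chr9:21015985-21028817 on the plus strand. *Vwf* (ENSMUSG00000001930) lies at chr6:125546774-125686679 on the plus strand and *Podxl* (ENSMUSG00000025608) at chr6:31519488-31563981 on the minus strand. *Plvap* (ENSMUSG00000034845) lies at chr8:71497765-71511752 on the minus strand.

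The 250 bases before the RefSeq start of *Selp*, *Sele*, *Icam1* and *Emcn* are shown (RefSeq, GRCm38.p6, plus strand, 5′ to 3′). These 4 of the 8 members were the ones that the promoter table used here held. *Selp*, *Sele* and *Icam1* had their highest EC level in the same subset, and *Emcn* did not. Capitals mark GGANNTTCC, the letters of a κB-like site, in *Sele* and *Icam1*. They mark TGANTCA, the letters of an AP-1 site, in *Selp* and *Sele*. They also mark TATAAA in *Sele*, and AGGAAG, the letters of an ETS-type site read on either strand, in *Emcn*.
Sele, chr1:164047984-164048233: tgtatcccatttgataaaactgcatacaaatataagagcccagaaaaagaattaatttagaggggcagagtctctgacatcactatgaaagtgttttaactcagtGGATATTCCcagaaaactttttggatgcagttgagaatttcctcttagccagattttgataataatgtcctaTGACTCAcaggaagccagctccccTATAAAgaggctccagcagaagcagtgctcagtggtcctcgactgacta
Selp, chr1:164115014-164115263: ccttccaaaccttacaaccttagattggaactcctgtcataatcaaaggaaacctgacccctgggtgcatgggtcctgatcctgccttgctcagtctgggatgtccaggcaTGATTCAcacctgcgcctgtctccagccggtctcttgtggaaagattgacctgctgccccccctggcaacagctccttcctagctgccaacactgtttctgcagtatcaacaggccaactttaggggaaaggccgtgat
Icam1, chr9:21015690-21015939: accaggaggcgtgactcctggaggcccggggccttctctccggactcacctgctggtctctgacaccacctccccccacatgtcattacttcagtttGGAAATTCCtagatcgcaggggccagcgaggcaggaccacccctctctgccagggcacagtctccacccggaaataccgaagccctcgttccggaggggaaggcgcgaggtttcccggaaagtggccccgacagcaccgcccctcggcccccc
Emcn, chr3:137340828-137341077: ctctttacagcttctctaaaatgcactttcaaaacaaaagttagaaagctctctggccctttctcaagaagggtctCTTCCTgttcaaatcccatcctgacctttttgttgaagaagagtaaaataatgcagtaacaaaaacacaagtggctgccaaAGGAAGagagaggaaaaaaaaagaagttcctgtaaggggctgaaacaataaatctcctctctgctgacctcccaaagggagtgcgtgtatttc

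Both strands were searched. GGANNTTCC began 145 bases before the start in *Sele* and 153 bases before it in *Icam1*, and 3.59% of 32851 promoter windows of this length hold it. This shorter pattern was searched after the NF-κB decamer consensus, which 7.25% of windows hold, had no match in the 4 windows. TGANTCA began 73 bases before the start in *Sele* and 139 bases before it in *Selp* (6.75% of windows), TATAAA began 49 bases before it in *Sele* (12.4%), and AGATAA, the letters of a GATA site (9.99%), had no match. AGGAAG, which 29.5% of windows hold, matched at 2 places in *Emcn* and also once each in *Selp* and *Sele*, where it is left in lower case. The capital stretches do not overlap. A match describes letters in this window and not a site in use.

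The 3 libraries held 7652, 5295 and 5397 cells after filtering, in the order female library, male library 1, male library 2, which is kept throughout. A cell had a median of 3252, 1884 and 1788 UMIs (unique molecular identifiers, so that each captured RNA molecule counts once). Barcodes shared between pairs of libraries numbered 12 to 18. Cells were clustered without the members, and 11 classes with at least 10 cells in each library were kept, 10 named from marker genes and 1, the *Ltf+* epithelial cluster of 1120 cells, called by its gene because it rested on 2 markers, *Ltf* and *Sftpd*. Clusters of 2794 epithelial cells and 782 leukocytes stayed unnamed and enter no comparison. Endothelial-like cells numbered 1764 (936, 476 and 352). They carried all 7 endothelial markers, *Pecam1*, *Cdh5*, *Flt1*, *Ptprb*, *Kdr*, *Tie1* and *Egfl7*, with 472 to 6919 UMIs each. The leukocyte marker *Ptprc* had 13 UMIs in them, the fibroblast marker *Col1a1* 6 and the platelet markers *Ppbp* 0 and *Itga2b* 31. The hemoglobin genes *Hbb-bs* and *Hba-a1* had 307 and 90 UMIs, of which 295 and 89 lay in the capillary-like EC described below and none in venous-like EC. All of these capillary UMIs came from the female library. Their part in the levels of the members was not tested. RNA of tear proteins from acinar cells was spread over all cells, as it was over barcodes without a cell, and made up 30.2, 52.3 and 54.6% of the UMIs of endothelial-like cells. Members had 0 to 3 UMIs per gene and library in the barcodes without a cell. These held only 67990, 231705 and 172853 UMIs, so that 3 UMIs there stand for 44.1, 12.9 and 17.4 per 1000000, and free RNA of the members below that was not detectable. Levels outside the endothelium under these values cannot be told from free RNA.

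Levels are given as CPM, the UMIs of a gene per 1000000 UMIs of the cells summed, by library. The class means are compared within a gene only. Both selectins were close to confined to the endothelium. *Selp* had 504, 469 and 725 CPM in endothelial-like cells, which held 99.0, 98.5 and 94.9% of its UMIs in all cells kept. The mean was 566 ± 139 CPM (SD, n = 3 libraries, here and below). The means of the other classes lay between 0 and 4.74 CPM, and in mural-like, monocyte-like and lymphoid-like cells no UMI was found. *Sele* had 91.0, 122 and 178 CPM in endothelial-like cells (mean 130 ± 44.3 CPM), and 98.8, 97.8 and 96.8% of its UMIs. Its 5 UMIs in the other 10 classes were scattered over 5 of them, 1 UMI in each. Against lymphoid-like cells, where 0 UMIs allow at most 3 over the group, the pooled endothelial level was at least 426-fold higher for *Selp* and at least 87.4-fold higher for *Sele*.

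*Vcam1* and *Icam1* were found well beyond the endothelium. *Vcam1*, the ligand of the integrin α4β1, had 147, 120 and 149 CPM in endothelial-like cells (139 ± 16.2 CPM), and these held only 30.4, 33.5 and 35.2% of its UMIs. Macrophage-like cells followed with 54.8, 57.1 and 79.7 CPM and fibroblast-like cells with 68.6, 52.7 and 54.0 CPM, and these neighbours overlapped. Myoepithelial cells (MEC), the contractile cells around the acini, had 44.7, 44.7 and 28.2 CPM and duct-like cells 40.5, 17.5 and 25.8 CPM, which overlapped as well. No *Vcam1* UMI was found in 580122 UMIs of dendritic-like cells or in 2424574 UMIs of lymphoid-like cells. The endothelial values lay above those of every other class in all 3 libraries.

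*Icam1*, the ligand of the integrins αLβ2 and αMβ2, was the member that did not have its highest mean in the endothelium. Duct-like cells had 274, 146 and 193 CPM (204 ± 64.9 CPM) and endothelial-like cells 178, 191 and 174 CPM (181 ± 8.85 CPM), so the ranges overlapped. Without the female library the endothelial mean was the higher of the pair. MEC-like cells had 118, 84.5 and 94.0 CPM and macrophage-like cells 74.7, 80.3 and 77.3 CPM. Monocyte-like, dendritic-like, fibroblast-like and lymphoid-like cells followed at means of 67.2, 57.4, 51.2 and 33.6 CPM, and each of these overlapped with the next. The *Ltf+* cluster had 12.4, 0 and 2.07 CPM and acinar-like cells 3.29, 0 and 0.308 CPM. Endothelial-like cells thus held 17.9, 28.5 and 24.5% of its UMIs.

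The other 4 members were again endothelial, with 1 exception each for *Vwf* and *Plvap*. *Vwf* had 198, 88.0 and 96.0 CPM in endothelial-like cells (127 ± 61.2 CPM), with the female library apart from the male pair. In the 10 other classes its means ran from 0 to 3.47 CPM, highest in acinar-like cells with 2.90, 4.10 and 3.39 CPM. Endothelial-like cells held 87.2, 35.8 and 28.8% of the *Vwf* UMIs, and 183 of its UMIs lay in the unnamed epithelial cells at 1.27 to 2.98 CPM. *Plvap* had 1271, 1154 and 954 CPM in endothelial-like cells (1126 ± 160 CPM) and 29.9, 27.2 and 25.0 CPM in fibroblast-like cells. *Emcn* had 1031, 450 and 421 CPM in endothelial-like cells (634 ± 344 CPM) and at most a mean of 1.99 CPM in the 10 other classes. *Podxl* had 500, 186 and 159 CPM (281 ± 190 CPM) and at most a mean of 1.06 CPM in these classes. In sums of this kind fewer cells with a gene and less RNA per cell look alike, so shares of cells are given as well.

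**Figure D1:**
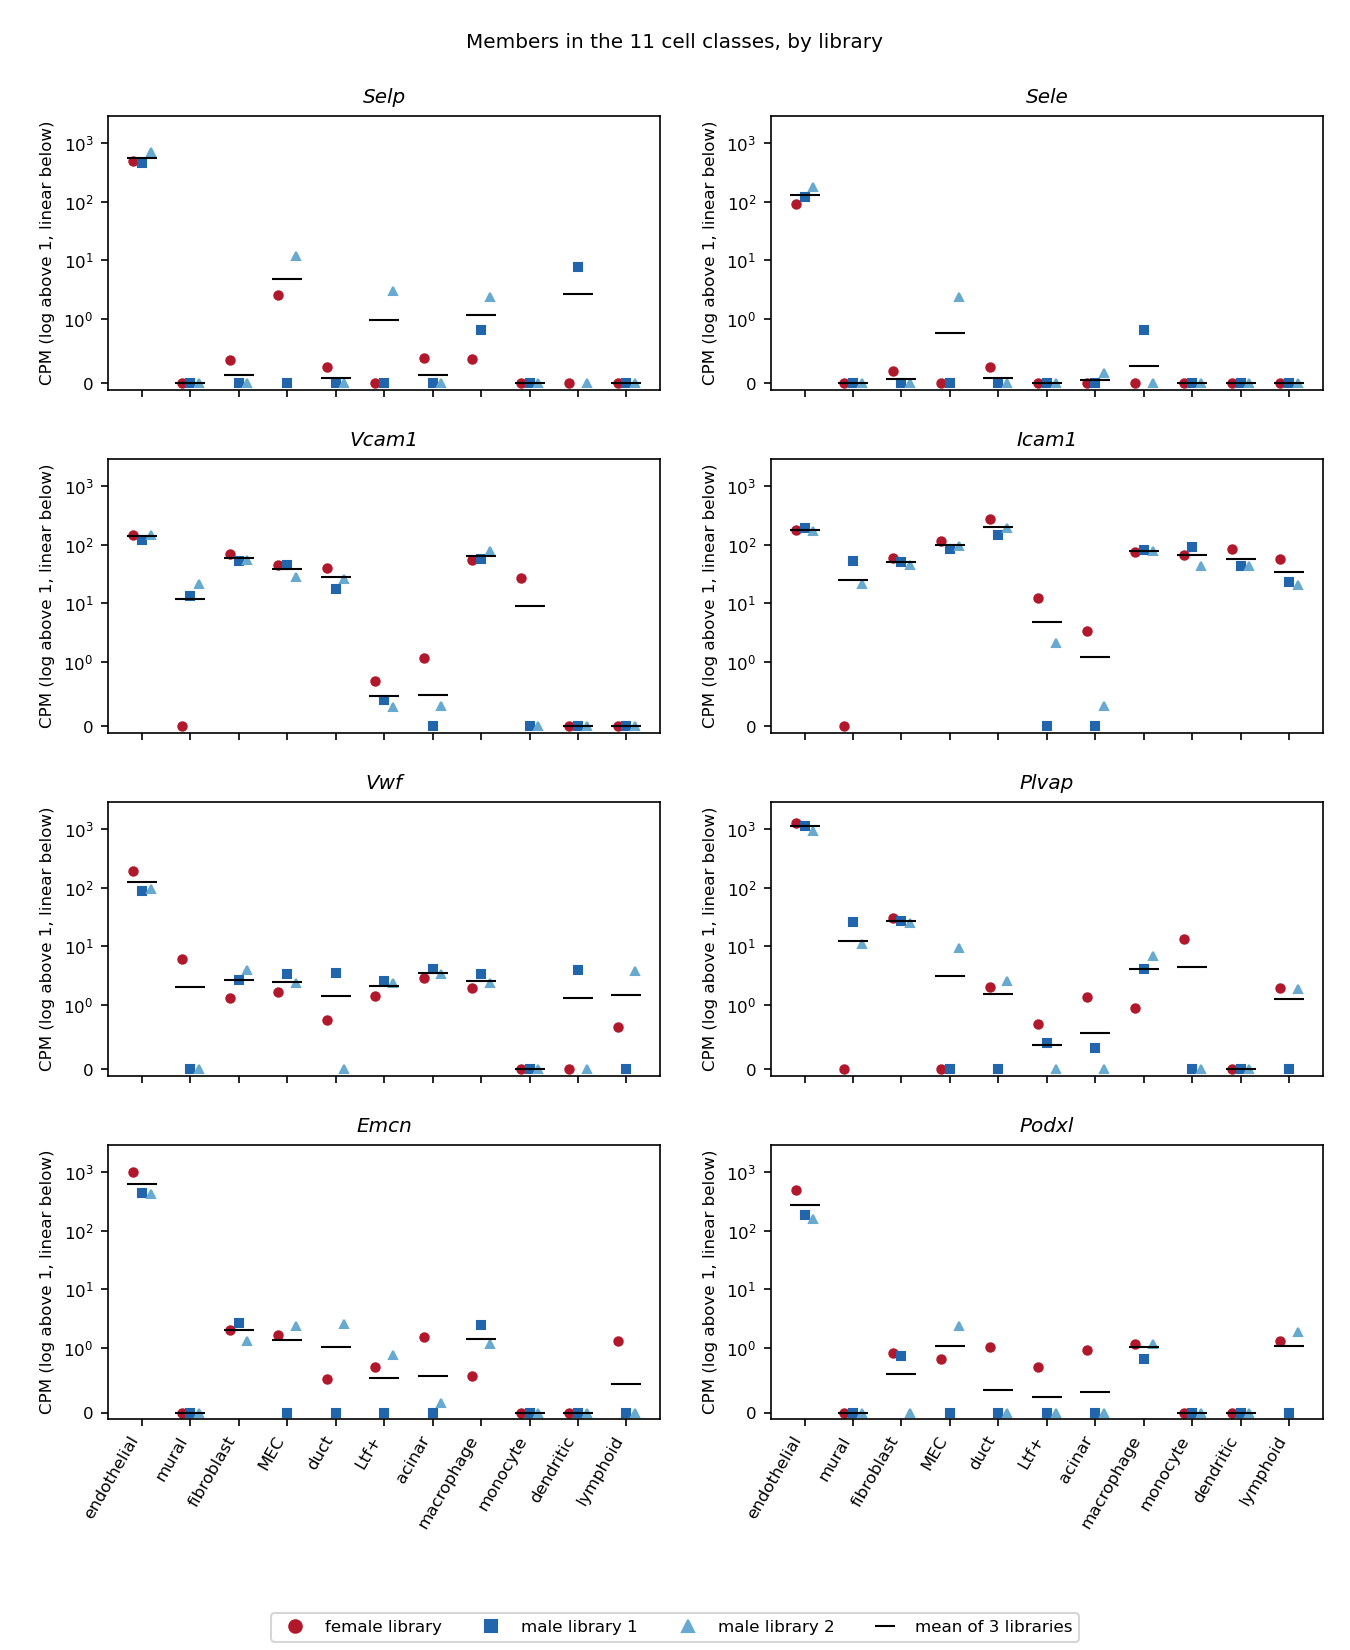
CPM of the 8 members (y, logarithmic above 1 and linear below) in 11 cell classes (x), with 1 point per library and a bar at the mean of 3 libraries. *Selp*, *Sele*, *Emcn* and *Podxl* stand out in endothelial-like cells alone, *Vcam1* and *Icam1* spread over stromal, duct-like, MEC-like and macrophage-like cells, and *Icam1* in duct-like cells (204 CPM) lies level with endothelial-like cells (181 CPM).

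Cells were thinned to 1000 UMIs each to compare shares of cells at equal total UMIs, and shallower cells were left out, which kept 863, 426 and 232 endothelial-like cells. Tear-product RNA counts in these totals, so the depth of the cells' other RNA still differed between libraries and classes. *Plvap* was then found in 60.7 ± 1.53% of endothelial-like cells and *Emcn* in 44.7 ± 13.0%. *Podxl* was found in 23.5 ± 11.9%, *Selp* in 22.7 ± 10.4% and *Icam1* in 15.3 ± 2.85%. *Vcam1*, *Vwf* and *Sele* were found in 11.5 ± 2.49%, 10.9 ± 3.50% and 8.98 ± 3.63%. Without thinning the share for *Selp* was 23.7 ± 5.24%. *Icam1* was found in 17.8 ± 3.65% of duct-like cells, and *Vcam1* in 5.83 ± 0.80% of fibroblast-like and 4.97 ± 1.08% of macrophage-like cells. In lymphoid-like cells, which should carry neither endothelial gene, *Selp* and *Emcn* were in 0% and *Plvap* in 0.154 ± 0.266% of cells.

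**Figure D2:**
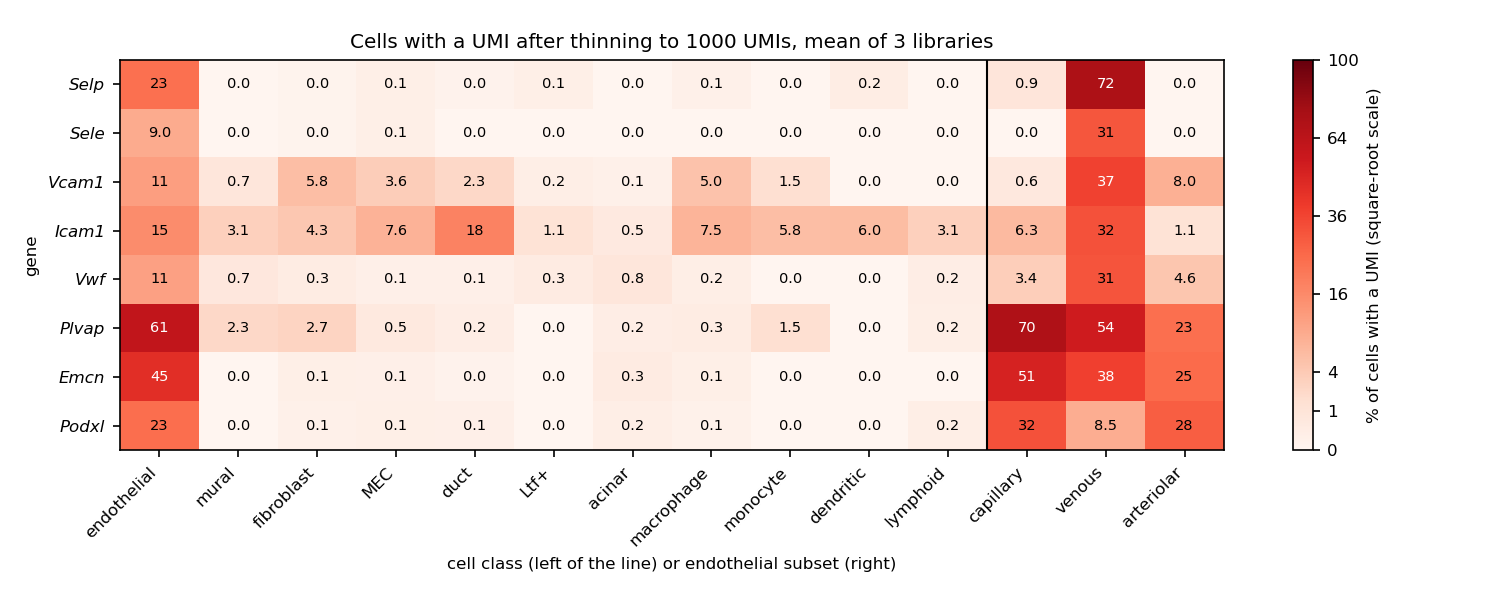
Share of cells with a UMI of each member after thinning to 1000 UMIs per cell (mean of 3 libraries, in percent, square-root colour scale), in 11 classes and, right of the line, in 3 endothelial subsets. *Selp* goes from 0.878% of capillary-like to 71.8% of venous-like EC, and *Podxl* from 31.7% to 8.48%.

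UMIs summed per library and class were tested across 8849 genes with edgeR (quasi-likelihood, library as a block, Benjamini-Hochberg adjustment, called under 0.05). Endothelial-like cells were compared with the mean of the 10 other classes on the log scale. All 8 members were higher in endothelial-like cells, beside 34.5% of all genes called in either direction and 26.1% called higher. *Selp*, *Sele*, *Emcn* and *Podxl* had 5 to 44 UMIs in all 10 other classes together and so passed the filter on low counts through the endothelial sums, which makes the count of 8 a description. With DESeq2 in place of edgeR *Sele* was not called (adjusted p = 0.198). The adjusted p was 7.14e-09 for *Icam1*, at 2.92 times the mean CPM of the other classes, and 1.82e-17 for *Vcam1*, at 6.58 times. It was 1.01e-21 for *Vwf* and 5.33e-28 for *Plvap*, at 66.0 and 204 times. For *Selp*, *Sele*, *Emcn* and *Podxl*, whose other classes lie at or near 0, the fitted change and its p are not given. Because the comparison averages logs, classes at 0 weigh on it: *Angpt2* was called higher in endothelial-like cells (adjusted p = 0.00183) while its 6.56 CPM there lay below the 12.4 CPM mean of the other classes in 3 of 3 libraries. None of the 8 members was of that kind.

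Endothelial-like cells were clustered once more, again without the members. This gave 948 capillary-like EC (506, 260 and 182), 352 venous-like EC (161, 108 and 83) and 93 arteriolar-like EC (64, 15 and 14), and 371 cells in clusters without a name. Among the markers, *Ackr1* had 350 CPM in the pooled venous-like and 1.88 CPM in the capillary-like EC. *Cxcl12* had 106 and 2949 CPM there, and 1123 CPM in arteriolar-like EC. *Gja4* had 271 CPM in arteriolar-like EC and 0 in venous-like EC. The capillary marker *Cd36* alone was not highest in its own subset, with 50.7 CPM there and 220 CPM in arteriolar-like EC. The arteriolar markers *Fbln2*, *Stmn2* and *Clu* were higher in venous-like (181, 40.1 and 103 CPM) than in capillary-like EC (28.6, 13.6 and 64.3 CPM). Of 5 lymphatic markers, *Prox1*, *Lyve1* and *Pdpn* had 2 UMIs each and *Mmrn1* 1 among all endothelial-like cells, while *Flt4* had 125, 90 of them in capillary-like EC. Of the 8 capillary-like clusters, 1 of 77 cells was led by genes of other cells, since 9 of its 10 leading genes, among them *Hp* and *Gm12886*, had their highest class mean in epithelial classes. Another, of 155 cells, was set beside it on another measure: 7 of its 10 leading genes, *Chia1* and *Amy1* first, also led an unnamed epithelial cluster. By class mean, 6 of these 10 genes, *Chia1* and *Amy1* included, were highest in endothelial-like cells and 3 in epithelial classes. Both scored as capillary-like and stay in that subset here. These clusters had 7.27 and 0 CPM of *Selp* and 574 and 1385 CPM of *Plvap*, pooled. Without both, an alternative chosen after seeing the data, 7, 4 and 8 members were called in the 3 comparisons of subsets described below, as many as with them, and capillary-like EC had 1548 ± 126 CPM of *Plvap*, 418 ± 237 CPM of *Podxl* and 12.4 ± 12.0 CPM of *Selp*. The male libraries gave 18250 and 11817 UMIs of arteriolar-like EC, so 1 UMI there stands for 54.8 and 84.6 CPM.

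The selectins marked the venous-like EC. *Selp* had 2141, 1681 and 2335 CPM in venous-like EC (2053 ± 336 CPM), 0, 10.5 and 22.6 CPM in capillary-like EC and no UMI in arteriolar-like EC. The venous values lay apart from both other subsets, which overlapped at 0. The venous value was 493 times the capillary one over the pooled UMIs (95% counting interval 259 to 1079, on 9 capillary UMIs) and at least 123-fold higher than in arteriolar-like EC. The pooled ratio leaned on the female library, which had no capillary UMI of *Selp*. Between the library means the ratio was 186. *Sele* had 400, 475 and 570 CPM in venous-like EC (482 ± 84.9 CPM), 2 UMIs in all in capillary-like EC and none in arteriolar-like EC. Its pooled ratio of venous to capillary was 468 (129 to 3879), and its venous level was at least 25.9-fold higher than the arteriolar floor. By library, *Sele* had 0, 2.62 and 4.52 CPM in capillary-like EC, and between the library means the ratio was 202. For both selectins the arteriolar bounds rest mostly on the female library, which held 147150 of the 177217 UMIs of arteriolar-like EC. The arteriolar zeros hold for subsets made by clustering. With subsets set by marker UMIs, *Selp* (log2 fold change 3.14), *Sele* (2.83) and *Icam1* (1.16) were higher in arteriolar-like than in capillary-like EC, and 23 of those 120 arteriolar-like cells lay in the venous-like clusters. The cause was not tested. After thinning, *Selp* was found in 68.3, 60.4 and 86.6% of venous-like EC and *Sele* in 27.3, 28.7 and 35.8%.

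The ligands of the immunoglobulin type followed the selectins in part. *Vcam1* had 580, 365 and 464 CPM in venous-like EC (470 ± 108 CPM) against 3.27, 7.86 and 4.52 CPM in capillary-like EC, which did not overlap. In arteriolar-like EC it had 54.4, 110 and 0 CPM, from 10 UMIs. Over the pooled UMIs its venous level was 124 times the capillary one (95% counting interval 64.5 to 272, on 9 capillary UMIs) and 9.25 times the arteriolar one (4.98 to 19.4). The arteriolar level was 13.4 times the capillary one (4.88 to 37.2). Between the library means the venous to capillary ratio of *Vcam1* was 90.1. By library its log2 ratio was 7.47, 5.54 and 6.68, largest in the female library. *Icam1* had 498, 420 and 423 CPM in venous-like EC (447 ± 44.3 CPM), 52.4, 60.2 and 81.3 CPM in capillary-like EC and 40.8, 54.8 and 0 CPM in arteriolar-like EC. It was thus the adhesion gene that kept a level in capillary-like EC, in 6.30 ± 0.873% of their thinned cells. *Vwf* had 713, 225 and 236 CPM in venous-like EC (391 ± 278 CPM), 26.8, 31.4 and 49.7 CPM in capillary-like EC and 143, 54.8 and 84.6 CPM in arteriolar-like EC. Its order was the same in every library, venous, arteriolar, capillary, although the male arteriolar values are 1 UMI each.

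The diaphragm gene and the sialomucins were ordered otherwise. *Plvap* had 1557, 1359 and 1514 CPM in capillary-like EC (1477 ± 104 CPM), 938, 999 and 675 CPM in venous-like EC and 47.6, 219 and 169 CPM in arteriolar-like EC, with no overlap between the 3 subsets. *Emcn* had 1267, 524 and 529 CPM in capillary-like EC, 693, 292 and 504 CPM in venous-like EC and 421, 219 and 254 CPM in arteriolar-like EC. The ranges overlapped, but the order within a library was the same in all 3. *Podxl* had 651, 251 and 294 CPM in capillary-like EC, 114, 73.1 and 32.5 CPM in venous-like EC and 999, 329 and 338 CPM in arteriolar-like EC. Venous-like EC were lowest in *Podxl* in every library, without overlap.

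**Figure D3:**
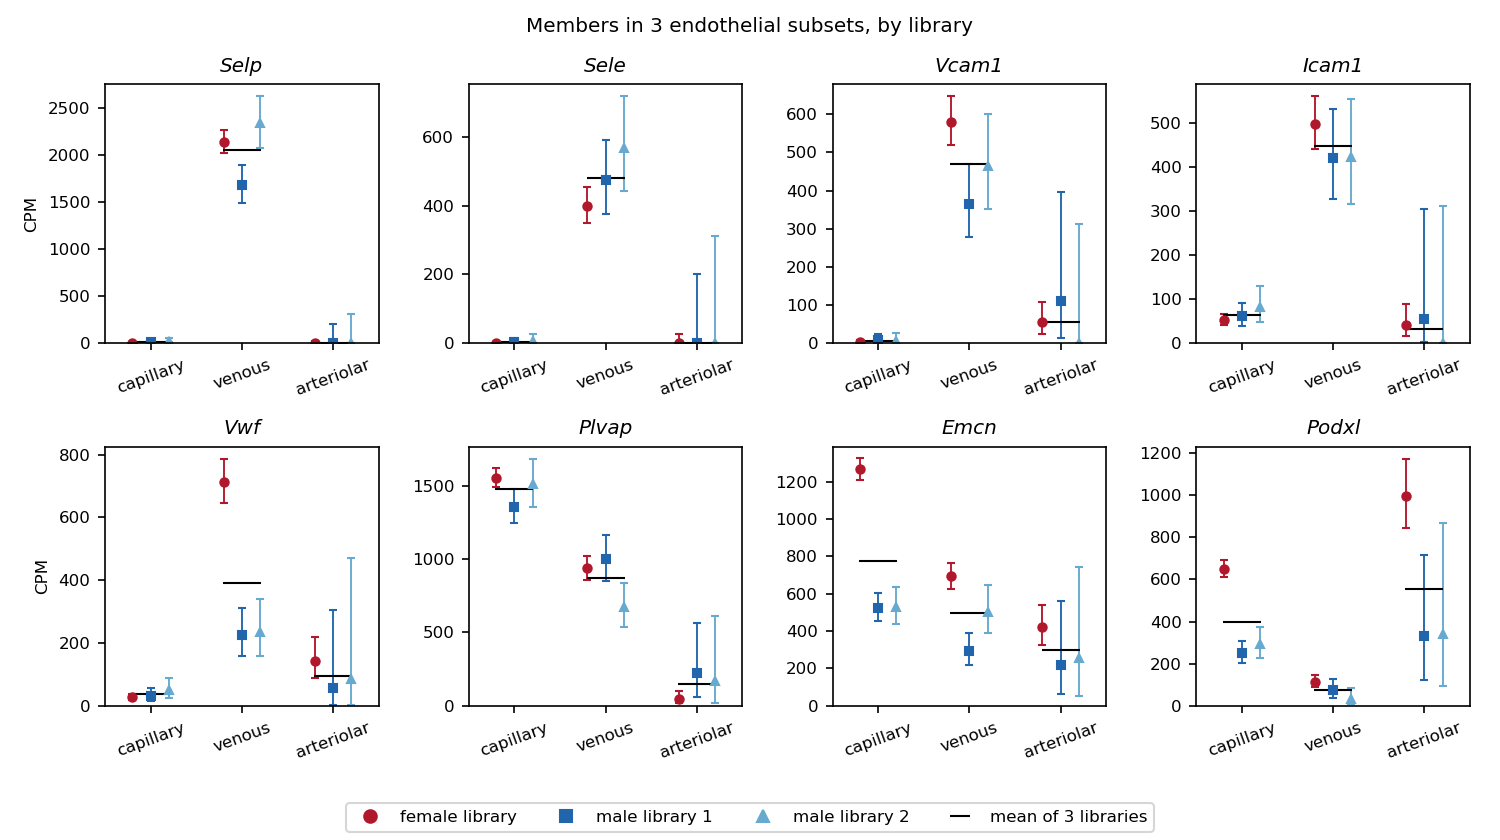
CPM (y, linear from 0) of the 8 members in capillary-like, venous-like and arteriolar-like EC (x), with 1 point per library, exact Poisson 95% intervals that cover counting error only, and a bar at the mean of 3 libraries. *Selp*, *Sele*, *Vcam1*, *Icam1* and *Vwf* peak in venous-like EC, *Plvap* and *Emcn* in capillary-like EC, and *Podxl* is lowest in venous-like EC (73.3 CPM on average).

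In edgeR over the subset sums, 1834 genes were tested and all 8 members passed the filter. *Selp*, *Sele* and *Vcam1*, with 0 to 10 UMIs in each of the other subsets, passed through the venous sums, so the counts of members below are a description. Against capillary-like EC, 5 members were higher and 2 lower in venous-like EC, beside 16.5 and 10.2% of all genes in these directions and 26.7% in either. For these 3 genes, with 9, 2 and 9 capillary UMIs, the ratios given above stand in place of a fitted change and its p, in all 3 comparisons. The log2 fold change was 4.01 ± 0.31 (SE, here and below; adjusted p = 7.63e-35) for *Vwf* and 3.14 ± 0.27 (2.46e-29) for *Icam1*. Without the female library *Vwf* came to 2.58 (adjusted p = 1.51e-10). *Podxl* was lower by a log2 fold change of -2.20 ± 0.30 (1.99e-12) and *Plvap* by -0.54 ± 0.20 (0.0253). For *Plvap* the call was lost without male library 1 (adjusted p = 0.248) or male library 2 (0.641) and without the library block (0.468), although it was lower in 3 of 3 libraries. *Emcn* had a log2 fold change of -0.40 ± 0.22 (adjusted p = 0.19), lower in 3 of 3 libraries, and passed the threshold with total UMIs in place of TMM (-0.63, adjusted p = 0.00583), a scaling that moved the median of all genes by -0.245 here.

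Between arteriolar-like and capillary-like EC, 2 members were higher and 2 lower, beside 5.29 and 7.63% of all genes (12.9% in either direction). *Plvap* was lower by a log2 fold change of -4.39 ± 0.37 (adjusted p = 1.22e-29, edgeR) and *Emcn* by -1.55 ± 0.31 (1.38e-05). *Vwf* was higher by 1.64 ± 0.48 (0.00864) in 3 of 3 libraries, and *Vcam1*, the other member called higher, had the higher CPM in 2 of 3. *Podxl*, at 0.39 ± 0.29 (0.472), and *Icam1*, at -0.73 ± 0.60 (0.528), did not pass. *Selp* and *Sele*, at 4.22 and 0.938 pooled CPM in capillary-like EC, lay below the 16.9 CPM that 3 UMIs make in arteriolar-like EC, and have no fold. At a clustering resolution of 1, *Vwf* (adjusted p = 0.233) and *Emcn* (0.0541) were not called. The calls leaned on the female library, which held 64 of the 93 cells: without it *Plvap* alone was called, at -3.11, and *Vcam1*, *Vwf* (adjusted p = 0.908) and *Emcn* (0.0681) were not.

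Between venous-like and arteriolar-like EC, 7 members were higher in venous-like EC and 1 lower, beside 16.4 and 7.85% of all genes (24.3% in either direction). *Icam1* was higher by a log2 fold change of 3.87 ± 0.48 (adjusted p = 4.01e-14, edgeR) and *Plvap* by 3.85 ± 0.38 (2.18e-21). *Vwf* was higher by 2.37 ± 0.39 (2.18e-08) and *Emcn* by 1.15 ± 0.32 (0.0019). *Podxl* was lower by -2.59 ± 0.34 (1.80e-12). *Selp*, *Sele* and *Vcam1* were the other 3 members called. Without the female library *Plvap* came to 2.40 (adjusted p = 2.54e-05), and *Vwf* (0.126) and *Emcn* (0.220) were not called, and *Emcn* was not called without male library 2 (0.1) either. At a clustering resolution of 1, neither *Plvap* (adjusted p = 0.403) nor *Emcn* (0.85) was called.

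**Figure D4:**
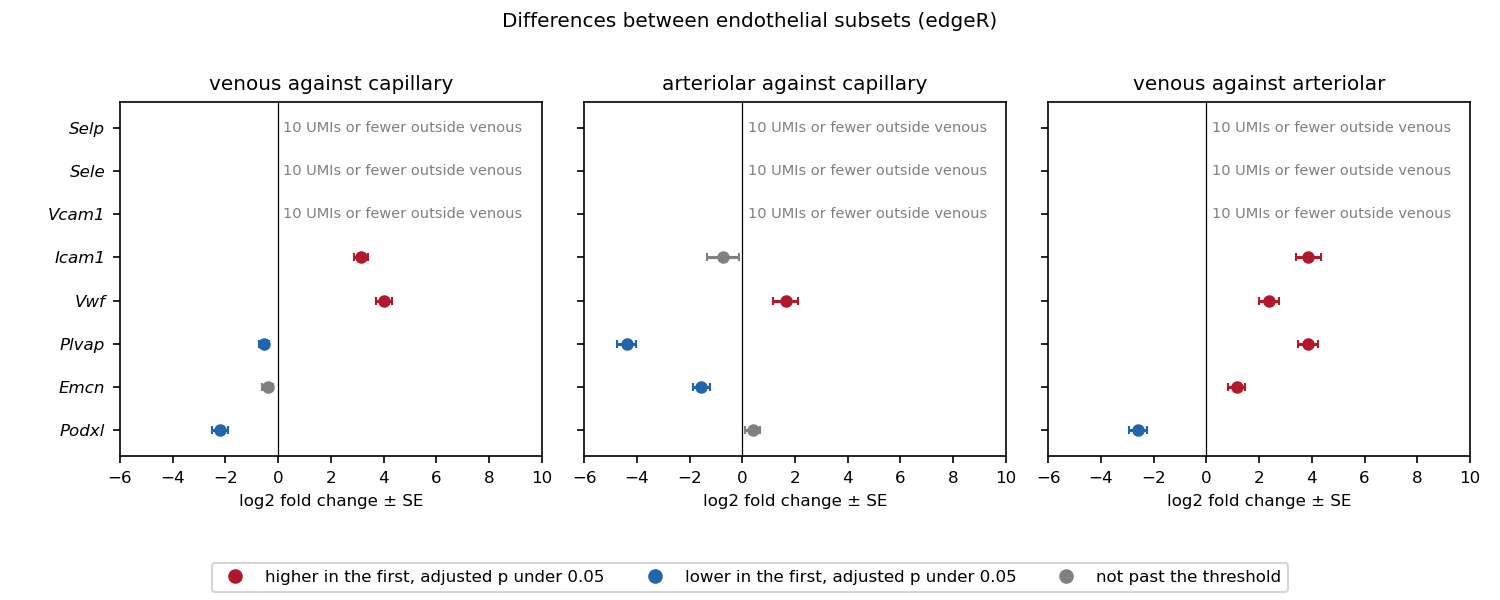
Log2 fold change ± SE (x, edgeR) of the 8 members (y) in 3 comparisons of endothelial subsets, coloured by direction where the adjusted p is under 0.05. *Selp*, *Sele* and *Vcam1*, with at most 10 UMIs in each of the capillary-like and arteriolar-like subsets, have no point. *Podxl* is lower in venous-like EC in both comparisons (-2.20 and -2.59).

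The venous-like EC were made of 3 clusters with the same members at different heights. *Selp* had 2001, 2634 and 1367 CPM in these clusters of 143, 115 and 94 cells (libraries pooled), *Sele* 375, 609 and 304 CPM and *Vcam1* 425, 779 and 315 CPM. *Icam1* had 454, 651 and 227 CPM and *Vwf* 393, 887 and 338 CPM, so the 5 genes were highest in the same cluster when pooled. *Plvap* (940, 1124 and 514 CPM) and *Emcn* (618, 727 and 304 CPM) kept that order, and *Podxl* (124, 66.1 and 77.4 CPM) did not. The clusters drew 63, 67 and 31 of their cells from the female library. By library, *Vcam1*, *Plvap* and *Emcn* were highest in the second of these clusters in 3 of 3 libraries, and *Selp*, *Sele*, *Icam1* and *Vwf* in 2 of 3. The EC without a name also held *Selp*, at 325, 369 and 505 CPM, and *Icam1*, at 263, 290 and 123 CPM. Among the 8 capillary-like clusters 1 cluster of 84 cells had 127 CPM of *Vwf* and 40.1 CPM of *Selp*, and the other 7 had at most 7.27 CPM of *Selp*.

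Detection of the 4 adhesion genes in the same cell was counted. After thinning, at least 1 of *Selp*, *Sele*, *Vcam1* and *Icam1* was missing in most cells, and all 4 were found in 6.21, 4.95 and 8.96% of 161, 101 and 67 cells. None of the 4 was found in 18.0, 23.8 and 8.96% of venous-like EC, compared with 94.4, 91.5 and 92.0% of capillary-like EC. *Selp* and *Sele* shared 41 of 161 cells in the female library where independent detection would give 30.1, 22 of 101 where it would give 17.5, and 22 of 67 where it would give 20.8. *Sele* and *Icam1* shared 19, 15 and 12 cells where 13.7, 9.19 and 7.88 would be so given. *Vcam1* and *Icam1* shared 24, 10 and 10 cells against 21.4, 9.5 and 8.54. Each of the 6 pairs lay above the independent value in all 3 libraries, which is a description, since the 3 clusters differ in level and cells of 1 library are not replicates.

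**Figure D5:**
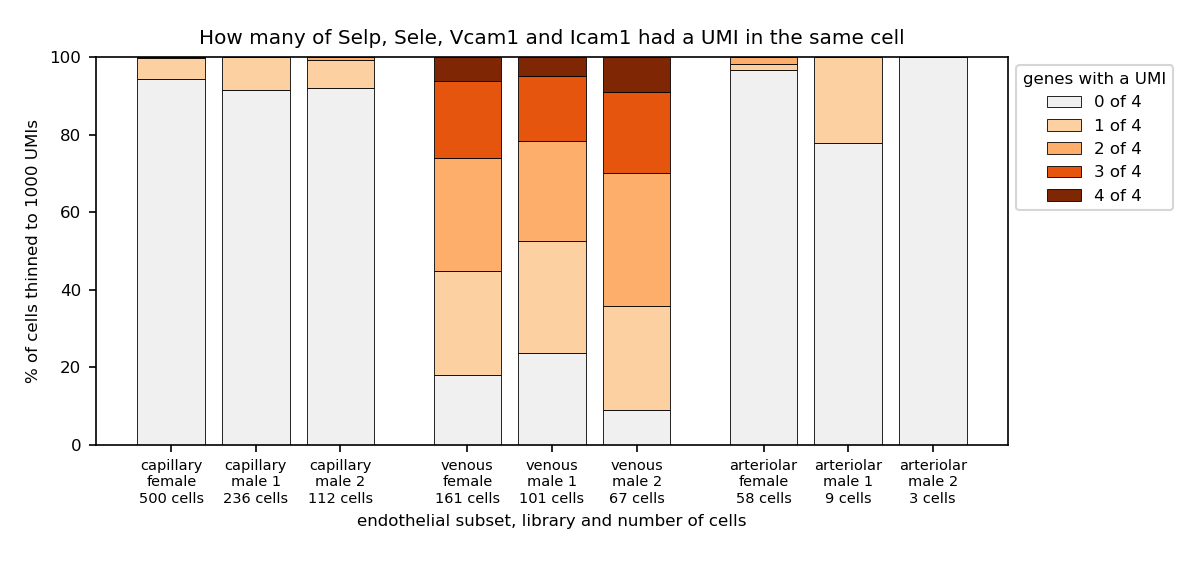
Share of cells thinned to 1000 UMIs (y, percent, stacked to 100) in which 0 to 4 of *Selp*, *Sele*, *Vcam1* and *Icam1* had a UMI, by endothelial subset and library (x, with cell numbers). Of the 3 subsets counted, venous-like EC alone had cells with all 4 genes (4.95 to 8.96% of cells), and more than 91% of capillary-like EC have none; the male arteriolar bars rest on 9 and 3 cells.

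Outside the endothelium each of 10 classes was compared with the mean of the remaining 9 in the same fit, which gave 80 tests of members, and 12 were called. With cells of high doublet scores kept 29 were, and the cause was not tested. These counts are to be read against the shares of all genes called. In mural-like, monocyte-like, dendritic-like and lymphoid-like cells, 13.3 to 27.0% of all genes were called in either direction. In the remaining classes, 23.9 to 32.2% of all genes were called higher and 6.85 to 17.8% lower. *Vcam1* was higher in macrophage-like cells (log2 fold change 4.60 ± 0.31, adjusted p = 4.91e-15, edgeR), at 63.9 CPM against a mean of 16.3 CPM in the others and beside 28.4% of all genes called higher. It was also higher in fibroblast-like cells (4.02 ± 0.33, 1.01e-12; 58.4 against 16.9 CPM; 29.8% of genes called higher) and MEC-like cells (3.28 ± 0.41, 5.04e-08; 39.2 against 19.1 CPM; 26.0% called higher). In duct-like cells it was called too (2.99 ± 0.41, 3.09e-07; 23.9% of genes called higher), but its 27.9 CPM was above the mean of the others, 20.3 CPM, in 2 of 3 libraries only. The test averages logs, and 4 of the other classes had means of 0 to 0.490 CPM. In macrophage-like, fibroblast-like and MEC-like cells the CPM of *Vcam1* was higher in 3 of 3 libraries. No member was called in mural-like, monocyte-like, dendritic-like or lymphoid-like cells, where 17.0, 13.3, 18.4 and 27.0% of all genes were.

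*Icam1* was higher in duct-like cells (2.58 ± 0.28, adjusted p = 8.2e-10, edgeR), at 204 against 46.2 CPM and in 3 of 3 libraries. It was higher in MEC-like cells (1.26 ± 0.33, 0.00198; 98.6 against 58.0 CPM) and called higher in macrophage-like cells (1.5 ± 0.30, 6.28e-05; 77.4 against 60.3 CPM), where 2 of 3 libraries had the higher CPM. It was lower in the *Ltf+* cluster (-2.22 ± 0.45, 0.00013; 10.3% of genes called lower) and in acinar-like cells (-3.64 ± 0.53, 3.09e-07; 17.8% called lower), in 3 of 3 libraries each. The size moved with the libraries, from -1.51 without male library 1 to -4.05 without the female library in the *Ltf+* cluster, and from -2.90 to -5.94 in acinar-like cells. Duct-like cells also carried much of the dissociation and stress list, genes such as *Fos*, *Egr1* and *Atf3* that tissue digestion is known to raise: 17 of 18 genes were higher and 1 lower (23.9 and 6.85% of all genes), with a summed 17367 to 31709 CPM against 9017 to 14680 CPM in endothelial-like and 1004 to 1763 CPM in acinar-like cells. In fibroblast-like cells 10 of the 18 genes were higher and 2 lower (29.8 and 11.3% of all genes; 10109 to 17431 CPM summed). In MEC-like cells 13 genes were higher and 1 lower (26.0 and 9.82%; 15586 to 23243 CPM), and in macrophage-like cells 7 were higher and 4 lower (28.4 and 7.07%; 6276 to 12909 CPM). Where *Icam1* was lower, none was higher and 13 were lower in the *Ltf+* cluster (25.4 and 10.3%; 2087 to 3239 CPM), and 2 were higher and 13 lower in acinar-like cells (32.2 and 17.8%). The part of this list in the *Icam1* and *Vcam1* levels was not tested.

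*Plvap* was higher in fibroblast-like cells than in the other non-endothelial classes (4.02 ± 0.42, adjusted p = 3.26e-10, edgeR; 27.4 against 3.08 CPM), in 3 of 3 libraries. *Emcn* and *Podxl*, found with *Plvap* in EC, had 1.99 and 0.60 CPM in the same fibroblast-like cells. *Vwf* was called higher in acinar-like cells (3.07 ± 0.43, 1.91e-07; 62 UMIs; 32.2% of genes called higher), at 3.47 against 1.76 CPM. The size of this change depended on the scaling. Scaled by total UMIs instead of TMM, a change that moved the median of all genes by -1.68 in this comparison, it was 1.41 (adjusted p = 0.0246). *Selp* was called higher in MEC-like cells on 8 UMIs, 5 of them in 1 cell of male library 2. The call was lost without that library (adjusted p = 0.168, edgeR). At a mean of 4.74 CPM, *Selp* in MEC-like cells cannot be told from free RNA, so its fitted change is not given.

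Between libraries the members fell in groups of their own, which is given as values only. CPM without tear-product and mitochondrial genes in the total is used here, because the share of carried-over tear RNA differed. In endothelial-like cells *Emcn* then had 1530, 980 and 970 CPM and *Podxl* 742, 405 and 365 CPM. *Vwf* had 294, 192 and 221 CPM. These 3 genes were highest in the female library. *Selp* had 748, 1023 and 1669 CPM, *Sele* 135, 265 and 410 CPM and *Vcam1* 219, 262 and 343 CPM. *Icam1* had 265, 417 and 401 CPM and *Plvap* 1887, 2515 and 2196 CPM. These 5 genes were lowest in the female library on this scale. The order turned with the scaling: in CPM over all UMIs only *Sele* of the 5 was lowest there, and *Plvap* was highest there. The female endothelial-like cells were also deeper, with a median of 2556 UMIs against 1386 and 1120. Venous-like EC were 161 of 936, 108 of 476 and 83 of 352 endothelial-like cells, and arteriolar-like EC were 64, 15 and 14 of them.

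Genes that work with the members were counted from lists, leaving out members and genes that named a subset. Of all genes, 16.5% were called higher and 10.2% lower in venous-like than in capillary-like EC, against which the counts of these lists are to be read. Among 7 tested genes of cytokine receptors and NF-κB pathway, 4 were higher and none lower in venous-like than in capillary-like EC: *Tnfaip3* (log2 fold change 2.97, adjusted p = 8.72e-15, edgeR), *Nfkbia* (2.46, 2.43e-29), *Irf1* (1.98, 6.25e-13) and *Il6st* (1.88, 2.48e-12). *Nfkbia* and *Tnfaip3*, feedback inhibitors of NF-κB and themselves its targets, had 1714 ± 442 and 109 ± 43.4 CPM in venous-like EC against 358 ± 36.9 and 16.1 ± 9.97 CPM in capillary-like EC. The list had a median log2 fold change of 1.88 over its tested genes, and all genes had 0.03. Of the dissociation and stress list 6 of 18 genes were higher and 2 lower there, with *Atf3* (2.44, 3.13e-19), *Zfp36* (2.23, 4.95e-23), *Socs3* (2.17, 3.15e-17) and *Ier3* (1.87, 4.53e-20) in front and *Hspa1a* and *Hspa1b* lower. Between venous-like and arteriolar-like EC 14 of the 18 were higher and 2 lower (16.4 and 7.85% of all genes), and between arteriolar-like and capillary-like EC none was higher and 8 were lower (5.29 and 7.63%). Summed, that list had 9471 to 21024 CPM in venous-like EC, 9068 to 12034 CPM in capillary-like EC and 4485 to 7836 CPM in arteriolar-like EC. Its part in the levels of the members was not tested.

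Podocalyxin is held at the membrane by ezrin-type proteins and the adaptor encoded by *Slc9a3r2*. *Slc9a3r2* was lower in venous-like than in capillary-like EC (log2 fold change -2.49, adjusted p = 4.49e-15, edgeR; 57.9 against 389 CPM) and *Rdx*, radixin, as well (-1.31, 4.52e-06; 173 against 502 CPM), which was 2 of 3 genes tested of the list of anchoring and cytoplasmic partners, beside 10.2% of all genes. The same 2 genes were lower in venous-like than in arteriolar-like EC (-2.83 and -1.01), where 7.85% of all genes were. Beside *Plvap*, the diaphragm and caveola list had *Cav1* (-0.70, 0.0145) and *Cav2* (-0.73, 0.0396) lower and *Cavin3* (0.73, 0.0172) higher in venous-like EC, out of 5 tested and beside 10.2 and 16.5% of all genes in these directions. Of 2 Weibel-Palade body genes tested, *Edn1*, the gene of the vasoconstrictor endothelin, was higher in arteriolar-like (3.63, 1.59e-24) and in venous-like (1.24, 0.00162) than in capillary-like EC, the latter in 2 of 3 libraries. With 426 ± 180 CPM in arteriolar-like and 51.3 ± 36.5 CPM in venous-like EC its order of these subsets was opposite to that of *Vwf*.

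Of the other ligands of the immunoglobulin type, 2 were tested between the subsets. *Icam2*, which resting endothelium carries, had 71.2 ± 14.2 CPM in venous-like, 91.9 ± 12.3 CPM in capillary-like and 283 ± 40.4 CPM in arteriolar-like EC, and was higher in arteriolar-like than in capillary-like EC (log2 fold change 1.35, adjusted p = 0.000857, edgeR), as was *Mcam* (1.80, 0.0121). No gene of the immunoglobulin-type list beside the members passed between venous-like and capillary-like EC, of 2 tested. Of the junction and transmigration list *Jam2* was higher (0.84, 0.00628) and *Jam3* lower (-2.47, 1.71e-12) in venous-like EC, 1 of 8 tested each way, beside 16.5% of all genes higher and 10.2% lower. The endothelial transcription factors had *Sox7* higher (1.99, 2.04e-09) and *Sox18* (-1.59, 2.19e-06) and *Klf2*, a factor induced by blood flow (-0.68, 0.0174), lower there, 1 higher and 2 lower of 8 tested beside the same shares.

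RNA of the leukocyte counter-receptors of the members was counted in the classes outside the endothelium. Of 12 genes tested, 10 were higher in lymphoid-like cells than in the other non-endothelial classes, 8 in macrophage-like, 10 in monocyte-like and 9 in dendritic-like cells, where 19.6, 28.4, 8.53 and 12.4% of all genes were called higher. The list's median log2 fold change was 4.18, 3.25, 4.36 and 3.75 in these classes, where the median of all genes was 0.10, 0.13, -0.46 and -0.31. Genes of the list were also higher in other cells. *Itgb1*, the β1 chain, was higher in mural-like, fibroblast-like and MEC-like cells (317 ± 184, 153 ± 64.8 and 236 ± 109 CPM) and, among leukocytes, in lymphoid-like cells (114 ± 92.5 CPM). It was lower in monocyte-like and acinar-like cells (11.8 ± 2.22 CPM in the latter) and in the *Ltf+* cluster (34.4 ± 9.57 CPM). *Glg1*, a ligand of E-selectin, was higher in fibroblast-like, MEC-like and duct-like cells (73.4 ± 43.1, 70.3 ± 36.2 and 65.9 ± 14.6 CPM). *Selplg*, the glycoprotein that P-selectin binds, had 116 ± 64.6 CPM in lymphoid-like cells, 139 ± 62.9 CPM in dendritic-like cells, 125 ± 55.1 CPM in monocyte-like cells and 74.3 ± 40.8 CPM in macrophage-like cells. *Itgal*, the αL chain that binds *Icam1*, was higher in lymphoid-like cells (log2 fold change 6.30, adjusted p = 1.15e-17, edgeR; 67.1 ± 60.1 CPM). *Itgb2*, its β2 partner, was higher in macrophage-like cells (4.67, 3.08e-17; 54.8 ± 20.3 CPM). Both chains were called higher in each of the lymphoid-like, macrophage-like, monocyte-like and dendritic-like classes. In endothelial-like cells *Itgb1* was called higher than the mean of the other classes (149 ± 76.7 against 122 CPM), in the test that averages logs. Its means in mural-like, MEC-like and fibroblast-like cells were above the endothelial one. *Itga4* and *Cd44* were lower in endothelial-like cells, with 1.62 ± 0.296 and 1.01 ± 1.75 CPM against 32.0 and 41.9 CPM.

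For each member the 3 genes most like it were sought by Pearson correlation of log2(CPM + 10) over 39 sums of class or endothelial subset by library, among 3689 genes with a mean of at least 20 CPM. The sums share libraries and depth, and no p is given. For *Selp* they were *Ackr1* (r = 0.965), *Rnd1* (0.924) and *Lrg1* (0.837), and for *Sele* the same 3 genes (0.981, 0.907 and 0.811). *Ackr1* and *Lrg1* also served to name the venous-like EC. *Vcam1* was most like *Rcan1* (0.767), *Socs3* (0.748) and *Ackr1* (0.739). *Icam1* was most like *Nop58* (0.835), *Eif1a* (0.814) and *Rplp1* (0.782). *Vwf* was most like *Aqp1* (0.936), *Grrp1* (0.923) and *Mmrn2* (0.913), and *Plvap* like *Grrp1* (0.946), *Aqp1* (0.943) and *Abcg2* (0.938). *Emcn* was most like *Cyyr1* (0.988), *Mmrn2* (0.987) and *Grrp1* (0.986), and *Podxl* like *Clic5* (0.987), *Fgd5* (0.983) and *Sox18* (0.981).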

How the data were processed

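Libraries were made with the 10x Genomics Chromium 3′ v3.1 kit. The deposited values are counts of UMIs per gene and cell that the authors made with Cell Ranger 6.1.2 and mm10 (submitters' processing notes), before any removal of free RNA or doublets. From these, barcodes passed with more than 500 UMIs, more than 200 detected genes and less than 15% mitochondrial UMIs, and the highest Scrublet scores (scanpy 1.11.5) were removed, at 0.8% per 1000 barcodes. Cells were integrated (SCTransform, 3000 features, 30 dimensions) and clustered in Seurat 5.3.0 without the members and related genes (335 features left out), and clusters were named from marker genes at a score of at least 0.5 and 3 raised markers. The *Ltf+* cluster, with 2 markers in its list, is called by its gene and given no cell type. Endothelial clusters used a resolution of 2, chosen after the clusters had been seen. The clusters come from other genes of the same cells, so cell classes and levels are not independent. UMIs were summed per library and class (at least 10 cells each) and tested with edgeR 4.0.16 in R 4.3.3 (filterByExpr, TMM, quasi-likelihood, library as a block, adjusted p under 0.05). The fit was also run on simulated counts. These had a common profile for all groups apart from the changes put in, and libraries that differed in depth only. They are no check of genes at 0 in some groups. The block pairs classes or subsets of the same library, which come from the same cell suspension. Levels at 0 were bounded by 3 UMIs over the group. Intervals are at 95% and cover counting error only.

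Kept libraries held 55390678, 37641576 and 41269825 UMIs (female, male 1, male 2). Named genes were the 8 members, the genes of fixed lists that passed the test with the largest changes, and the 3 most alike per member. The members and lists were chosen with earlier results of these data known. Alternatives were DESeq2 1.42.0, other scalings and filters, other cell filters, clustering resolutions and subsets by marker UMIs, free RNA subtracted, no block, leaving out each library and, chosen after seeing the data, capillary-like EC without 2 of their clusters. Clusters without a name and 19 mast-like cells were left out of the comparisons.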

Additional observations from a re-analysis of the deposited data

How the results depend on the processing

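Of 600 fold changes recomputed under alternatives, 567 kept their direction and their side of the threshold, 27 fell below it, 3 passed it and 3 reversed. These cover the members in endothelial-like cells, in the 3 comparisons of subsets and in the 12 calls outside the endothelium, and leave out the tests there that were not called. The fitted values of *Selp*, *Sele* and *Vcam1* among the subsets count here as well. With only cells of more than 1000 UMIs and under 5% mitochondrial UMIs, 7 of 9 subset sums were left and arteriolar-like EC were the female library alone, so the arteriolar values under it are no check across libraries. That lone sum is assumed to vary like the others. All 8 members stayed higher in endothelial-like than in other cells when any library was left out (8 to 8), while *Sele* missed the threshold with DESeq2 (adjusted p = 0.198). That count is a description and no measure of stability, since *Selp*, *Sele*, *Emcn* and *Podxl* passed the low-count filter through the endothelial sums. When each library was left out in turn, 6 to 7 members were called between venous-like and capillary-like EC (7 with all libraries), 1 to 4 between arteriolar-like and capillary-like EC (4), 6 to 8 between venous-like and arteriolar-like EC (8), and 11 to 18 of the 80 tests outside the endothelium (12). The lowest arteriolar count, 1, was that without the female library. Between arteriolar-like and capillary-like EC, 2 members were called at a clustering resolution of 1 and 7 with subsets set by marker UMIs. With marker UMIs *Selp* (log2 fold change 3.14), *Sele* (2.83) and *Icam1* (1.16) were higher in arteriolar-like EC. Outside the endothelium, 29 tests were called with high doublet scores kept. The cause was not tested in any of these cases. With the endothelium at a resolution of 1, *Plvap* (0.403) and *Emcn* (0.85) were not called between venous-like and arteriolar-like EC.

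Without the replicate block that pairs groups of the same library, 8 members were called in endothelial-like cells, 6 between venous-like and capillary-like EC, 3 between arteriolar-like and capillary-like EC, 7 between venous-like and arteriolar-like EC and 11 outside the endothelium. Counts over all genes moved by more than 1.5 times in these cases: 1998 against 3054 genes in endothelial-like cells without the female library, 221 against 489 between venous-like and capillary-like EC without the block, 128 (DESeq2), 66 (without the female library), 97 (without the block) and 148 (marker UMIs) against 237 between arteriolar-like and capillary-like EC, and 187 (without the female library) and 201 (marker UMIs) against 445 between venous-like and arteriolar-like EC. In arteriolar-like EC, 0 UMIs of *Selp* and *Sele* allow a pooled level of up to 16.9 CPM.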
